A study of Danio rerio with 10 samples.

Results

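The 6 QUAS lines of a zebrafish (Danio rerio) transgene-mapping series were compared by whether their genotype names a second reporter. Tail fin DNA of adult fish was studied, 1 library for each line, and the 6 libraries are 6 of the 10 in the series. The 3 lines with a second reporter are Tg(QUAS:mApple-CAAX, he1.1:mCherry), allele c636, Tg(QUAS:mApple, he1.1:CFP)c787 and Tg(QUAS:GFP, cmlc:GFP)c635. The 3 lines with the QUAS reporter alone are Tg(QUAS:GFP)c403, Tg(QUAS:GCaMP7a)c594 and Tg(QUAS:GFP-CAAX)c591. The lines were placed on their side by the genotype label and by no measured value. The labels name no treatment for any of them, and the number of fish behind a library is not stated. The other libraries, from wild type fish, Tg(h2ax:h2az2a-mCherry)mw3, a mitfa:mCherry and crestin:EGFP compound line and Tg(sox10:Kaede)zf393, served as background.

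QUAS is the binding sequence of the fungal transcription activator QF, so a QUAS reporter is silent until a driver line supplies QF. A second reporter makes carriers visible without the driver: the he1.1 promoter is active in the hatching gland, and the cmlc promoter in the heart muscle. GFP, mApple, mCherry and CFP are fluorescent proteins, the CAAX tail anchors a protein in the cell membrane, and GCaMP7a is a calcium sensor. Such transgenes are commonly carried in by Tol2, a transposable element whose transposase cuts the cassette out of a plasmid, pastes it into the genome and duplicates the 8 bases at the target. TransTag fragments fin DNA with the Tn5 transposase and amplifies outward from the Tol2 end, so each read gives the DNA next to an end, here called a flank. A cassette sitting in the genome gives genomic sequence, and a cassette still in its plasmid gives plasmid sequence. The assay reads DNA and says nothing about how strongly a reporter is expressed.

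Flanks that began alike were grouped into families. Below is the commonest base at each of the first 80 positions of the 5 families on which the comparison turns, counted from the start of the deposited flanks. Capitals mark the first 8 bases, the stretch that a Tol2 insertion would duplicate if the flank begins at the Tol2 end. The labels do not say how reads were anchored, so this was not tested. For the shared flank, which wild type fish also gave, no Tol2 insertion is known.
c636 own flank: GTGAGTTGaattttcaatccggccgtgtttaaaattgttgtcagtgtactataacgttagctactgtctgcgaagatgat
c787 own flank: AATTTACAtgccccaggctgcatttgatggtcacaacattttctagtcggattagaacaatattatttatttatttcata
c635 own flank: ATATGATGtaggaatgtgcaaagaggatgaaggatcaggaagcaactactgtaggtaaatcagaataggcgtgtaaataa
c594 own flank: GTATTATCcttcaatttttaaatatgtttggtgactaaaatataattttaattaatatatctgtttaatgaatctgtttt
shared flank: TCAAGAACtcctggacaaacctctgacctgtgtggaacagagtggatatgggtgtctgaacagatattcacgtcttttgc

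The first 4 are own flanks: each passed 10 reads and 1% of placed reads in its line and had its highest count there. The last is a flank that all 10 libraries shared, the wild type among them, where it made up 234 of 238 placed reads. It therefore does not tell a line's own insertion. The 5 sequences are unrelated over these 80 bases, with 40 to 47 edits between any pair. Their base composition differed. The c594 flank had a GC content of 17.5% and a longest run of A and T of 25 bases, the c787 flank 31.25% and 18 bases, the c635 flank 37.5% and 7 bases, and the c636 flank 38.75% and 9 bases. The c636 flank held 4 CpG pairs, and the c594 flank none. Within the 8 capital bases, A and T counted 7 in c787, 6 in c594 and in c635, and 4 in c636. Chromosome positions and neighbouring genes of the own flanks were not analysed here.

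An own flank was found in 3 of 3 lines with a second reporter and in 1 of 3 with the QUAS reporter alone. In c636 it took 776 of 971 placed reads, 79.9% (95% exact binomial interval 77.3 to 82.4). In c787 it took 284 of 555, 51.2% (46.9 to 55.4), and in c635 it took 112 of 271, 41.3% (35.4 to 47.4). On the other side, c594 had 180 own reads, 28.3% of those placed (24.9 to 32.0). No family met the rule in c403 or c591. In the background libraries, own flanks took 86.5% of placed reads in mw3 and 5.83% in the compound line. None was called in wild type or in zf393, which is also transgenic. The family with its highest count in zf393 had 409 reads, 0.305% of those placed and so under the 1% limit. The shared flank took 99.6% there. In c403 a flank of the compound line passed both limits, with 14 reads (3.90% of placed reads). It missed the rule because its highest count, 446 of 15802 placed reads (2.82%), lay in the compound line, a much deeper library. The 359 placed reads of c403 and the 8324 of c591 put the share that 3 reads would make at 0.836% and 0.036%. That share is the limit for a flank with no read, not for one too rare to be called. Placed reads outside the shared and the vector families, called or not, numbered 16 in c403 and 2 in c591. The intervals and limits cover counting error only, since copies made by PCR are not separate molecules. The sides did not overlap. The mean was 57.5 ± 20.1% (SD, n = 3) with a second reporter and 9.45 ± 16.4% (SD, n = 3) without, a difference of 48.0 percentage points with an exact two-sided permutation p = 0.1. That is the smallest p that 3 libraries against 3 can give, with 20 ways to assign them. None of the 9 differences tested could therefore reach 0.05, and over the 9 tests this adjusted to p = 0.3 (exact permutation, Benjamini-Hochberg). With 3 libraries against 3, a p is the share of assignments whose difference in means is at least as large in either direction. Each line has 1 library, so variation between lines cannot be told from variation between libraries.

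Counting each distinct line of a file once gave a similar picture. The own flank made up 121 of 164 distinct placed flanks in c636, 36 of 72 in c787, 24 of 64 in c635 and 32 of 96 in c594, which is 73.8%, 50.0%, 37.5% and 33.3%. The gap between c635 and c594 was smaller in this count than in reads. Flanks under 20 bases were left out of both counts, and this mattered for c594. With flanks from 8 bases, its own share was 53.0%, beside 65.4% in c636, 57.7% in c787 and 41.4% in c635. The sides then overlapped, and the difference was 37.2 points (exact permutation p = 0.2). c403 and c591 stayed at 0 under that count.

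**Figure D1:**
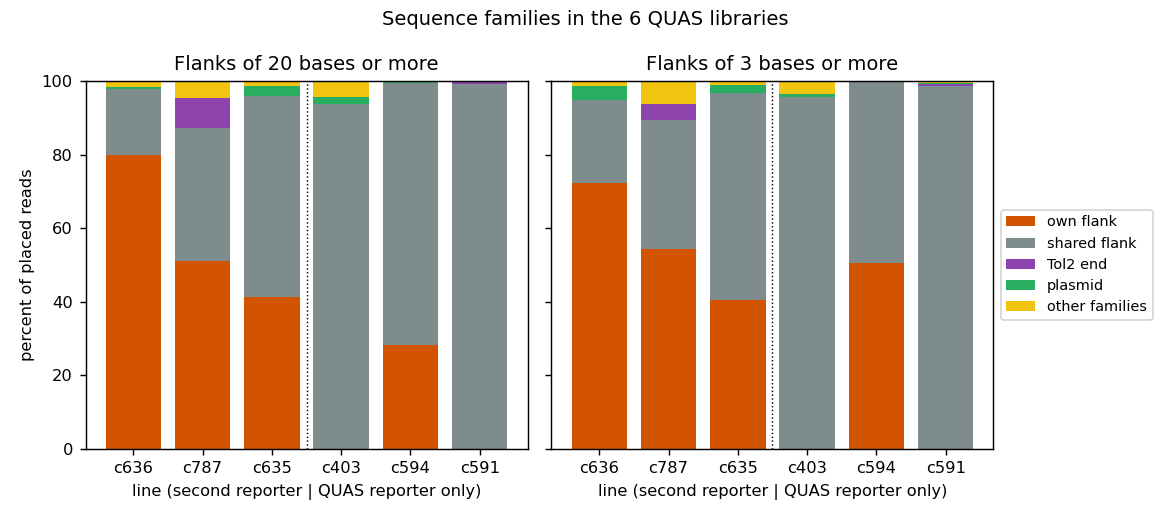
Share of each sequence family in the 6 QUAS libraries, in percent of placed reads, for flanks of 20 bases or more and of 3 bases or more. The own flank reaches 79.9% in c636 and 0% in c403 and c591, and c594 moves from 28.3% to 50.4% when short flanks enter.

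The shared flank ran the other way. It made up 17.8% of placed reads in c636, 36.0% in c787 and 54.6% in c635, against 93.9% in c403, 71.0% in c594 and 99.3% in c591. Every line with a second reporter lay below every line without in this count. That ended with flanks from 8 bases, where c635 stood at 55.3% and c594 at 46.7%, and with all lines as the denominator, where they stood at 43.1% and 35.6% (exact permutation p = 0.2 for both). The means were 36.2 ± 18.4% and 88.1 ± 15.0% (SD, n = 3 each), a difference of -51.9 points with an exact permutation p = 0.1 (adjusted p = 0.3 over the 9 tests). Since the shares of a library sum to 100%, this is largely the own-flank difference seen from the other side. The ratio of own to shared reads leaves the other families out. For each shared read, c636 gave 4.49 own reads (95% interval 3.80 to 5.32), c787 1.42 (1.18 to 1.71), c635 0.757 (0.587 to 0.974) and c594 0.399 (0.334 to 0.475). With flanks from 3 bases, c594 stood at 1.03, above the 0.715 of c635 and below the 1.55 of c787. The order of c594 and c635 thus depended on the short flanks, while c636 stayed first at 3.22.

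Depth did not divide the sides. c636 had 1596 flanks, c787 1060 and c635 343, against 618 in c403, 1266 in c594 and 9658 in c591. The means were 999.7 ± 629 and 3847 ± 5043 (SD, n = 3 each; exact permutation p = 0.6), and without c591 the difference turned from -2848 to 57.7. The shallowest library, c635, had an own flank, and the deepest, c591, had none. Repetition differed too. Distinct lines were 12.2% of all lines in c636, 10.2% in c787 and 21.0% in c635, against 12.0% in c403, 8.93% in c594 and 4.34% in c591. That share is lowest in the deepest library and highest in the shallowest. The sides overlapped, with means of 14.5 ± 5.74% and 8.41 ± 3.84% (SD, n = 3 each) and an exact permutation p = 0.2. Without c635 the difference fell from 6.05 to 2.79 points.

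**Figure D2:**
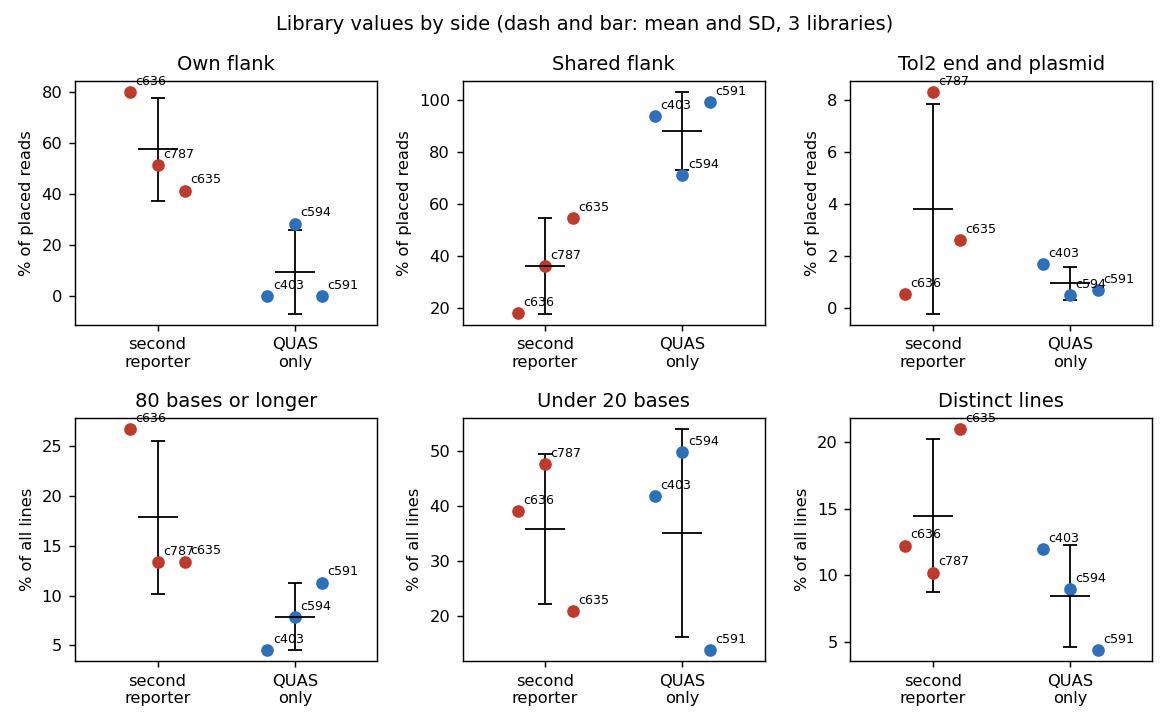
Values of the 6 libraries by side, each point 1 library, with dash and bar for the mean and SD of 3 libraries. The sides do not overlap in the own flank, the shared flank and the share of flanks of 80 bases or longer, and they overlap in the other 3 measures.

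Reads that ran through the fragment into the adapter end in an index, and this index split the libraries in another way. c636, c787 and c403 carried one index (25 of 26, 9 of 9 and 12 of 12 reads that reached it), and c594, c635 and c591 carried another (12 of 12, 6 of 6 and 78 of 83). They are called index set 1 and index set 2 here, and the labels do not say what the index stands for. Each set holds lines of both sides, so the difference could be taken within a set. The own-flank difference was 65.5 points in set 1 and 27.2 points in set 2, and the difference with the set held fixed was 46.3 points (exact permutation within sets, p = 0.111, the smallest that 9 assignments allow). The shared flank gave -66.9 and -30.6 points.

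Own flanks were nearly absent from the libraries of other lines. In the 4 libraries outside the QUAS lines, no read of 20 bases or more fell in any of the 4 own flanks. Among the QUAS lines 7 such reads did. One read of the c636 flank lay in c787 and another in c403, and one read of the c787 flank lay in c636 and another in c403. All 7 lay in a library of the same index set, and none in the 12 pairings of an own flank with a library of the other set. With flanks from 3 bases the counts were 17 and 0.

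The second flank of the compound line also appeared in 4 QUAS lines. It had 16 reads in c636 (1.65% of placed reads), 23 in c787 (4.14%), 4 in c635 (1.48%) and 14 in c403 (3.90%). None was found in c594 or c591. In the compound line itself it took 446 of 15802 placed reads (2.82%), a lower share than in c787 and c403. In each line the reads had nearly a single length. All 23 in c787 ended at 39 bases, all 14 in c403 at 23 bases, all 4 in c635 at 54 bases, and 14 of 16 in c636 at 25 bases, whereas the 446 reads in the compound line ended at 20 positions. In c787, 16 of the 23 carried A14G, in which the compound line's commonest sequence has A at position 14 of the flank and the read has G. The change was in 0 of the 446 reads of the compound line, and in none of the reads in c636, c635 and c403.

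Vector-derived reads were few. They fell into a family matching a Tol2 end, where the read continues into transposon sequence, and a family matching plasmid backbone beside the replication origin. Their sequences are not shown. Together they made up 0.515% of placed reads in c636, 8.29% in c787 and 2.58% in c635, against 1.67% in c403, 0.472% in c594 and 0.661% in c591. The sides overlapped, since c636 lay below c403 and c591. The means were 3.80 ± 4.03% and 0.935 ± 0.645% (SD, n = 3 each), with an exact permutation p = 0.3, and without c787 the difference fell from 2.86 to 0.614 points. Over distinct lines it was 0.881 points (exact permutation p = 0.9).

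The 2 vector families were spread over different lines. Tol2-end reads numbered 46 in c787 and 54 in c591, and 0 in the other 4 QUAS lines. Every one of the 100 reads was 67 bases long, as were the 19 in the mw3 line and the 22 in the compound line. In zf393, 106 of 107 such reads had that length. By distinct lines, c787 and c591 had 4 vector flanks each. The wild type library held 1 Tol2-end read. Plasmid reads were found in c636 (5), c635 (7), c403 (6), c594 (3) and c591 (1), on both sides, and c787 had none. The 4 libraries outside the QUAS lines had 0 plasmid reads among 151372, a pooled limit of 0.00198%. Most of these reads, 134232, came from zf393. Taken alone, the limit was 1.26% in wild type and 0.273% in mw3. With flanks from 3 bases, plasmid reads numbered 62 in c636 and 28 in c591. Of these, 35 in c636 and 27 in c591 were exactly 8 bases long. The vector-derived shares from 3 bases stood at 3.97%, 4.36% and 2.05% with a second reporter and at 0.976%, 0.237% and 0.849% without. In that count, chosen after the data were seen, the sides did not overlap (difference 2.77 points, exact permutation p = 0.1). A planned minimum of 8 bases gave 3.98%, 4.97% and 2.10% against 1.06%, 0.249% and 0.878%, in the same order of lines. There too the sides did not overlap (difference 2.96 points, exact permutation p = 0.1).

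Flank length was compared next, because a flank must be long enough to be placed. Flanks under 20 bases made up 39.2% of all lines in c636 (95% exact interval 36.8 to 41.6), 47.6% in c787 (44.6 to 50.7) and 21.0% in c635 (16.8 to 25.7). They made up 41.9% in c403 (38.0 to 45.9), 49.8% in c594 (47.1 to 52.6) and 13.8% in c591 (13.1 to 14.5). Low and high values stood on both sides. The means, 35.9 ± 13.6% and 35.2 ± 18.9% (SD, n = 3 each), differed by 0.743 points (exact permutation p = 1). The direction was not stable. It turned to -9.94 without c591, to -5.11 without c787 and to -0.872 without c636, and it was 1.49 points in index set 1 and -10.8 in set 2.

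The length bins showed where the lines differed. Flanks of 0 to 7 bases reached 24.4% of lines in c636 and 12.5% in c787, against 2.62% in c635, 7.93% in c403, 4.82% in c594 and 3.28% in c591. Flanks of 8 to 19 bases were most frequent in c594, at 45.0%, and least in c591, at 10.5%. Flanks under 30 bases made up 56.8%, 55.3% and 43.7% with a second reporter and 68.0%, 67.1% and 58.7% without. At this limit the sides did not overlap, with a difference of -12.7 points (exact permutation p = 0.1). The share of short flanks was therefore similar between the sides at 20 bases and lower with a second reporter at 30 bases. Single lengths weigh on this in c591, which rose from 13.8% at 20 bases to 58.7% at 30. There 29.2% of lines were 21 bases long and 12.4% were 28 bases long. Distinct lines were not counted at the 30-base limit.

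Most short flanks could still be matched to a family by their first bases. Only 34 lines in c636 and 1 to 5 in each other QUAS line could not be matched. In c594 458 of 631 short lines, 72.6%, were own flank, in c787 289 of 505 (57.2%), in c636 354 of 625 (56.6%) and in c635 26 of 72 (36.1%). In c403 and c591 none were, and 96.9% and 94.4% of their short lines were shared flank.

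Long flanks separated the sides when reads were counted, and not when distinct lines were. Flanks of 80 bases or more, which run to the end of the read, were 26.8% of lines in c636 (95% exact interval 24.6 to 29.0), 13.4% in c787 (11.4 to 15.6) and 13.4% in c635 (9.99 to 17.5). They were 4.53% in c403 (3.03 to 6.48), 7.82% in c594 (6.40 to 9.44) and 11.3% in c591 (10.7 to 11.9). The interval of c635 overlaps that of c591. The means were 17.9 ± 7.71% and 7.88 ± 3.38% (SD, n = 3 each), a difference of 9.97 points (exact permutation p = 0.1, adjusted p = 0.3 over the 9 tests). It was 15.5 points in index set 1 and 3.85 in set 2, and without c636 it fell to 5.52. Over distinct lines the shares were 37.9%, 17.6% and 19.4% with a second reporter (c636, c787, c635) and 12.2%, 14.2% and 19.1% without (c403, c594, c591), so c787 lay below c591 (difference 9.86 points, exact permutation p = 0.2). Among placed reads alone the difference was 16.7 points (exact permutation p = 0.1). The median length over all lines did not divide the sides: 27, 21 and 36 bases with a second reporter, 28, 21 and 28 bases without (exact permutation p = 0.9). Without c635 that difference turned from 2.33 to -1.67 bases. Among placed reads alone, medians were 56, 58 and 40 bases against 38, 38 and 28, which do not overlap (difference 16.7 bases, exact permutation p = 0.1). Over distinct lines the difference was 8.83 bases (exact permutation p = 0.2).

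Placed reads of 80 bases or more were mostly own flank in the lines with a second reporter: 408 of 427 for c636, 122 of 142 for c787, and 42 of 46 for c635. For c594 the count was 45 of 99. Among reads of 20 bases or more, 52.6% of the own flank of c636 were 80 bases or longer, as were 43.0% in c787, 37.5% in c635 and 25.0% in c594. Within the shared flank, the shares were 10.4% in c636, 9.50% in c787 and 2.70% in c635, against 8.01% in c403, 11.1% in c594 and 13.2% in c591. In all 4 lines with an own flank, it held a larger share of long reads than the shared flank of the same library when flanks of 20 bases or more were counted. With flanks from 3 bases this held in c636, c787 and c635, whereas in c594 45 of 638 own reads (7.05%) and 50 of 622 shared reads (8.04%) were 80 bases or longer. Within the shared flank the side difference in this share was -3.23 points, the opposite sign to that of all lines. The means were 7.54 ± 4.21% and 10.8 ± 2.60% (SD, n = 3 each), and the c635 share rests on 4 reads. Other length measures of the shared flank kept the sign of all lines. Its median length averaged 38.7 bases with a second reporter and 34.7 without, a difference of 4 bases. Shared reads under 30 bases made up 41.6%, 34.0% and 43.2% in c636, c787 and c635. They made up 43.6%, 44.8% and 52.5% in c403, c594 and c591. The median own flank of 20 bases or more was 80 bases in c636, 60.5 in c787, 71 in c635 and 47.5 in c594, and the median shared flank 28 to 45 bases in the 6 lines.

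**Figure D3:**
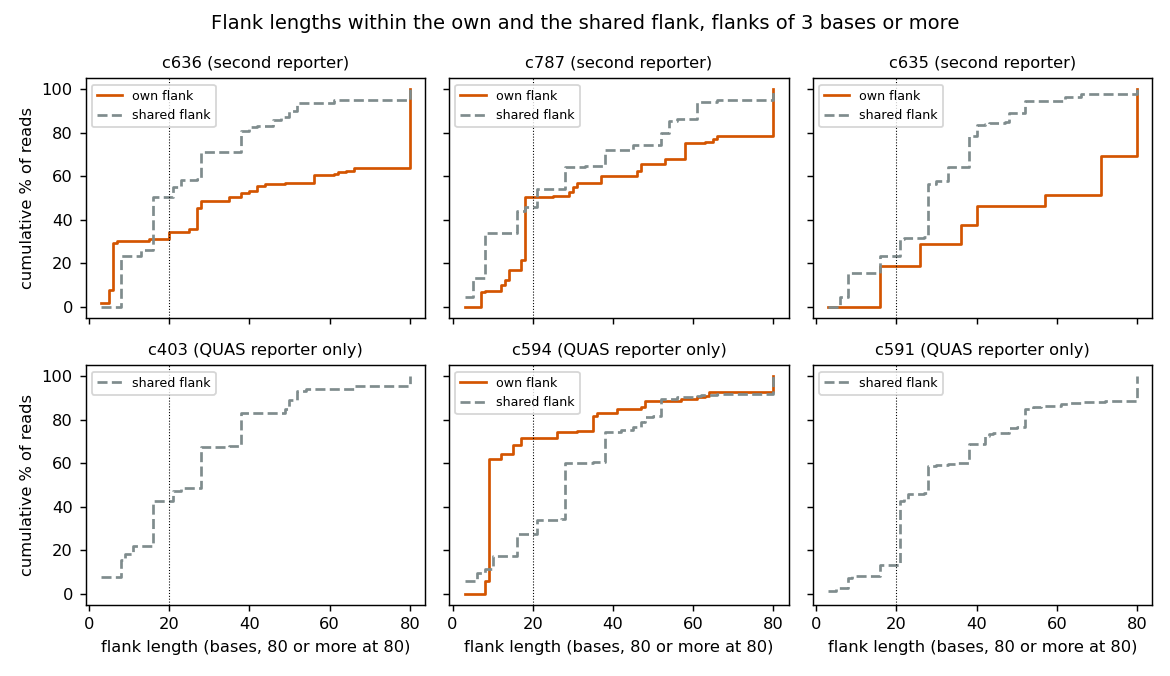
Cumulative share of reads by flank length, for the own and the shared flank of each QUAS library, counting flanks of 3 bases or more, with a dotted line at 20 bases. The own flank of c594 jumps at 9 bases, where 56.4% of its reads end, and those of c636, c787 and c635 reach 80 bases with 36.1%, 21.3% and 30.4% of their reads, against 7.05% in c594.

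Where reads ended differed between own flanks. From 3 bases upward, 360 of 638 own reads of c594 (56.4%) ended at base 9. In c787 165 of 573 (28.8%) ended at base 18, in c636 244 of 1130 (21.6%) at base 6, and in c635 26 of 138 (18.8%) at base 16. More than any other own flank, that of c594 ended at a single base. Ends with at least 2 reads stood at 23 positions in the own flank of c636, 19 in c787, 16 in c594 and 6 in c635.

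The shared flank has the same sequence in each library and so allows a direct comparison of where reads end. Its commonest end was base 16 in c636 and c403, base 8 in c787, base 28 in c635 and c594, and base 21 in c591. In c591 2823 of 9526 reads (29.6%) ended there, while in the other 5 libraries 4.27% to 8.11% did. The distance between 2 libraries' end profiles, as the percent of reads that would have to move, averaged 40.6 (30.9 to 49.8) over the 6 pairs on the same side and 41.1 (28.5 to 49.9) over the 9 pairs across sides. Pairs in the same index set averaged 36.6 and pairs across sets 43.7. These pairs reuse libraries and were not tested.

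**Figure D4:**
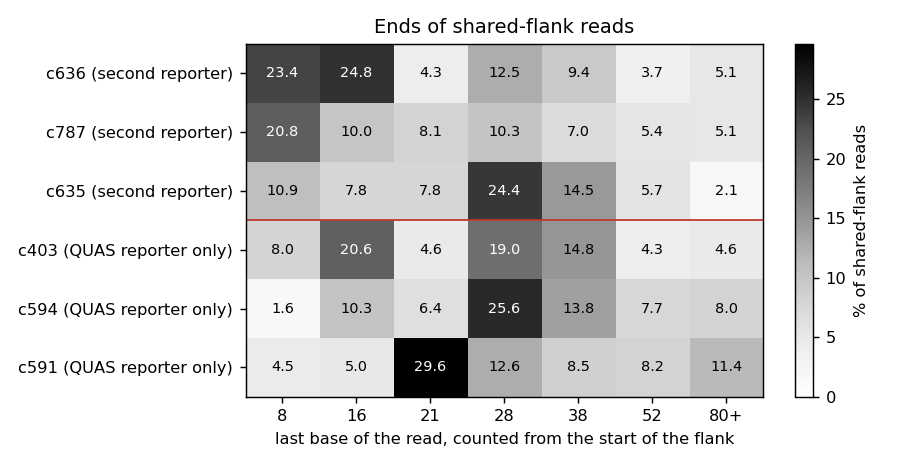
Share of shared-flank reads, in percent, that end at each of 7 common positions, counted in bases from the start of the flank, in the 6 QUAS libraries. The column at 21 bases is dark in c591 alone (29.6%), and c636 and c403 share a dark column at 16 bases.

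Reads of the shared flank were also compared base by base with the sequence above, over its first 60 bases. Substitutions made up 0.635% of bases in c636, 0.730% in c787 and 0.834% in c635. Without a second reporter they made up 0.814% in c403, 0.487% in c594 and 0.258% in c591. The background libraries ran from 0.143% in the compound line and 0.220% in mw3 to 0.299% in wild type and 0.742% in zf393. Among the QUAS lines, c403 stood with the lines with a second reporter. Repeated changes weigh on these rates. In c403, C-to-A changes at positions 10 and 23 had 23 reads each, among 103 substitutions. In c635, the C-to-A change at position 10 had 9 reads, among 44 substitutions. Whether such repeats are PCR copies was not tested. C-to-A or G-to-T changes were 71.4%, 83.9% and 63.6% of the substitutions with a second reporter and 76.7%, 38.1% and 28.2% without, and 34.5% in wild type. Here too the sides overlapped, through c403.

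The change C2A was counted in shared-flank reads of 8 bases or more, and so not in placed reads alone. In C2A the shared flank has C at position 2 counted from the Tol2 end and the read has A. It was in 30 of 351 reads of c636 (8.55%), 44 of 321 of c787 (13.7%) and 17 of 543 of c403 (3.13%). It was in 2 of 184 reads of c635 (1.09%), 3 of 562 of c594 (0.534%), 28 of 9254 of c591 (0.303%) and 0 of 254 of wild type. The 3 highest values are those of index set 1, and the sides overlapped. Within each of those libraries the changed reads had nearly a single length: 44 of 44 in c787 ended at base 8, 26 of 30 in c636 at base 16 and 16 of 17 in c403 at base 16. Most of these reads were therefore under 20 bases, where matching to the shared flank allowed 1 or 2 edits. Among flanks of 20 bases or more, C2A did not reach both 5 reads and 2% of reads in any library.

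**Figure D5:**
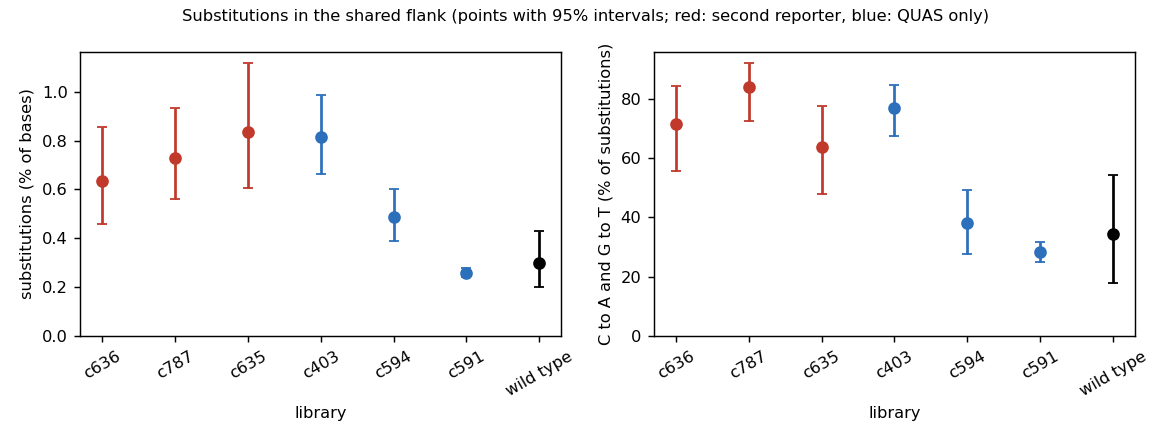
Substitutions within the first 60 bases of the shared flank, as percent of bases and as the percent of substitutions that are C to A or G to T, with 95% exact binomial intervals, for the 6 QUAS libraries and wild type. c403 (0.814% and 76.7%) lies among the lines with a second reporter.

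Read-through into the adapter was rare and did not divide the sides when all lines were counted. Whole adapters were removed from 1.88% of lines in c636, 0.943% in c787 and 2.33% in c635, against 2.10% in c403, 1.42% in c594 and 1.08% in c591. The means were 1.72 ± 0.708% and 1.53 ± 0.522% (SD, n = 3 each; exact permutation p = 0.8), and without c635 or without c591 the small difference changed sign, to -0.123 and -0.0442 points. Counted over distinct lines, taken here before adapter removal, the sides did not overlap. Lines that differ only in the adapter or index count apart in this measure, unlike in the other counts of distinct lines. The shares were then 14.1%, 8.47% and 10.3% in c636, c787 and c635 and 16.2%, 14.3% and 20.2% in c403, c594 and c591, a difference of -5.97 points (exact permutation p = 0.1).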

How the data were processed

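TransTag libraries of adult tail fin genomic DNA were deposited as 1 flanking sequence a line, with no header, count or coordinate. The labels do not say how the authors anchored, trimmed and filtered reads. Identical lines were counted as reads, and also once each as distinct lines. A residual Tn5 adapter of 19 bases (up to 3 edits) was cut off. Flanks of 20 bases or more ("placed reads") were grouped over all 10 libraries by their first 20 bases, allowing 4 edits (edlib 1.3.9.post1). Families matching, with up to 1 edit, 17 bases of a Tol2 end or 21 bases beside a plasmid origin, both typed from general knowledge, were called vector-derived. Flanks under 20 bases entered only as an alternative: those of 3 to 7 bases were matched exactly, those of 8 to 11 with 1 edit, those of 12 to 19 with 2. Sides were compared by an exact two-sided permutation test of the difference in means, adjusted by Benjamini-Hochberg over 9 tests (Python 3.11.15, scipy 1.17.1, numpy 2.4.6, matplotlib 3.10.9). Family counting was tested on reads simulated from the families found here, which cannot show whether those families are right. Depth ran from 343 to 9658 lines in the QUAS libraries. All sequence families called in a QUAS library were named and no gene was. Lines and measures were chosen with earlier results of these data known. Alternatives covered length, edit, call and adapter limits, distinct lines, index sets and left-out libraries. The 3-base minimum, removal of adapter pieces, and each vector family alone were added after the data were seen.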

Additional observations from a re-analysis of the deposited data

Results flagged for a closer look

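For 3 measures the difference between the sides (second reporter minus QUAS reporter alone) had opposite signs in the 2 index sets, and in each case the difference between the sets was not tested. The median flank length differed by -4 bases in index set 1 and by 11.5 bases in index set 2. The share of lines with adapter read-through differed by -0.692 percentage points in set 1 and by 1.08 points in set 2. The number of lines differed by 710 in set 1 and by -5119 in set 2, where c591 alone is the deepest library. Each set holds 3 libraries, so a single library stands for a side in every set.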

How the results depend on the processing

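The own-flank difference kept its direction under all 10 other settings (31.3 to 51.1 points) and with any 1 library left out (36.8 to 57.5). Of these settings, the call limits of 5% and of 3 reads returned the main value, 48.0 points, and so add nothing to that count. The sides came to overlap for the own and the shared flank with minimums of 8 and 3 bases, for the shared flank also with all lines as denominator, and for flanks of 80 bases or more over distinct lines. The direction was also kept by the shared flank (-56.1 to -34.3, and -61.1 to -42.7), the share of flanks of 80 bases or more (9.70 to 16.7, and 5.52 to 12.2), the vector-derived share (0.314 to 2.98, and 0.614 to 4.50) and the share of distinct lines (6.51 to 6.79, and 2.79 to 8.19). The number of lines with an own flank stayed at 3 and 1 under 8 settings. Reversals occurred in 10 of 120 recomputed values, and their cause was not tested. The short-flank difference, 0.743, became -12.7 with a limit of 30 bases and -4.67 within index sets, and ran from -9.94 to 8.21 with a library left out. The median-length difference, 2.33 bases, was 8.83 over distinct lines and 16.7 among placed reads, where the sides no longer overlapped, and it ran from -1.67 to 5.83 with a library left out. The depth ran from -4462 to 57.7 lines, with a library left out. The adapter difference, 0.184, became -5.97 points over distinct lines before adapter removal, where the sides no longer overlapped. It ran from -0.123 to 0.572 with a library left out. With 2 libraries against 3 the smallest exact permutation p is 0.2. The c635 library, with 343 lines, limits the precision on its side. No paired analysis was possible because the labels give the libraries no replicate numbers that the sides share.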
